A study of Homo sapiens with 9 samples.

Results

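Interferon-stimulated genes were followed in MCF10A cells, an immortalized line of human breast epithelium, after knockdown of the histone methyltransferase G9a. The 46 genes were named antiviral effectors, nucleic acid sensors, transcription factors and chemokines that interferon is known to induce. They were matched to the count tables by Ensembl gene ID, and all 46 were found among the 60308 gene IDs. A filter on low counts left 42 of them among 18435 genes tested, and MX2, RSAD2, XAF1 and CXCL11 did not pass it.

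Total RNA was sequenced from 9 cultures in 3 groups of 3 biological replicates, numbered 1 to 3 in each group. All 9 cultures, controls included, carried ectopic MYC and ectopic PI3KH1047R, a mutant form of PI3K. They also carried a doxycycline-inducible hairpin that had been switched on with 2 µg/mL doxycycline for 72 hours. The control group expressed a scrambled hairpin (shSCR), and the other groups expressed shG9a_1 or shG9a_4, which target EHMT2, the gene that encodes G9a. The series' design text names a single parental line with these ectopic genes (MCF10A.PM), so the groups model one transformed line. The protocols mention no interferon treatment, so the levels are called basal here.

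EHMT2 was measured at 51.1, 45.2 and 45.4 CPM (read counts scaled to library size) in the shSCR libraries. It was at 17.6, 22.6 and 21.0 CPM with shG9a_1, and at 32.1, 27.2 and 33.5 CPM with shG9a_4. Both hairpins lay below all shSCR libraries, and shG9a_1 lay below shG9a_4. The log2 fold change of EHMT2 was -1.21 (SE 0.11) with shG9a_1, with an adjusted p of 0.00766 by edgeR's quasi-likelihood test. With shG9a_4 it was -0.61 (SE 0.11). The adjusted p by that test was 0.259, or 0.0907 with the replicate number in the fit. Neither of these fits thus called the lowered target of shG9a_4, which limits what an absence of calls with that hairpin can show. Among the alternative edgeR and DESeq2 fits its lowest adjusted p was 2.24e-05, so the call depended on the fit. Reads in genes ranged from 53065611 to 76958831 per library. All 10 epithelial and basal markers examined averaged at least 1 CPM. Among 10 immune markers, 2 had no read in any library and PTPRC, the pan-leukocyte marker, stayed under 0.1 CPM. The 2 that averaged at least 1 CPM were CD14, at 1.91 to 6.24 CPM, and HLA-DRA, described further on.

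Cells sense viral RNA or DNA through receptors such as RIG-I (DDX58) and MDA5 (IFIH1) and answer by secreting interferons. Type I and type III interferons signal through JAK1 and TYK2 to a complex that includes STAT2 and IRF9 and binds the interferon-stimulated response element (ISRE). Type II interferon acts at gamma-activated sites (GAS). G9a writes methylation on lysine 9 of histone H3, a mark of silenced chromatin.

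The ISRE is a DNA sequence known from many, not all, interferon-stimulated genes, and it was looked for in the promoters. RefSeq windows (build GRCh38.p14) from 250 bases before to 50 bases after a gene start were at hand for 36 of the 46 genes. The ISRE core was searched as GAAANNGAAA on both strands, which reads TTTCNNTTTC on the other strand. It was present in a window of 25 of the 36 genes, 69.4%, and in a window of 4.38% of all 27305 genes of the table. The GAS core TTCNNNGAA, which reads the same on both strands, was found in 12 of the 36 genes, 33.3%, against 9.38% of all genes. Matches of the cores overlapped each other in 6 windows. Stretches of 60 bases before the start are printed for genes on which the results below turn, 5′ to 3′ on the strand of the gene, with ISRE core matches in capitals. A match is a description of the letters and does not show that a factor binds there.

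ISG15, on the plus strand at chr1:1013362-1013421, and IFIT1, on the plus strand at chr10:89392488-89392547, are classical targets, and each held 2 matches in its stretch.
ISG15: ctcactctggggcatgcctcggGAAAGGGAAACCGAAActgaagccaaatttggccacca
IFIT1: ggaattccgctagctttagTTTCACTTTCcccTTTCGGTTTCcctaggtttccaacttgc

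IFI27, on the plus strand at chr14:94110609-94110668, and IFI44L, on the plus strand at chr1:78620350-78620409, were among the genes with higher values under both hairpins.
IFI27: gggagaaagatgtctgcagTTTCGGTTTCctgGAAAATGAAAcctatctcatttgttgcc
IFI44L: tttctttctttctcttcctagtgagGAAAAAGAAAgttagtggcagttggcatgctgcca

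IFI6 (minus strand, chr1:27672262-27672321), GBP1 (minus strand, chr1:89065301-89065360), SAMD9 (minus strand, chr7:93118081-93118140) and HERC5 (plus strand, chr4:88456997-88457056) differed between cultures of different replicate number, as described further on.
IFI6: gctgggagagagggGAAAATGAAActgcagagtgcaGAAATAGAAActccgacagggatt
GBP1: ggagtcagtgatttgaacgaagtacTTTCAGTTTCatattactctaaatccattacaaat
SAMD9: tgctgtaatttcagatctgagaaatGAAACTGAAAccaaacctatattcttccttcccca
HERC5: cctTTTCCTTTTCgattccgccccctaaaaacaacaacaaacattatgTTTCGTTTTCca

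The members spanned a wide range of basal levels. Of the 46 genes, 20 averaged at least 10 CPM over the 9 libraries, 14 averaged 1 to 10 CPM and 12 were under 1 CPM. Levels of different genes are compared below only per kilobase of exon length (CPM per kb). The highest was IFITM3, a membrane protein that blocks the fusion of incoming viruses, with a mean of 102.8 CPM per kb. Its relative IFITM2 followed at 52.8 CPM per kb and BST2, or tetherin, which holds budding virions on the cell surface, at 38.7 CPM per kb. IFIT5, of the RNA-binding IFIT family, averaged 18.1 CPM per kb, and the ADP-ribosyltransferase PARP14 averaged 13.4 CPM per kb.

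The values of these 5 most abundant members overlapped between the groups. IFITM3 had 161, 113 and 125 CPM under shSCR, 137, 144 and 131 CPM under shG9a_1, and 161, 132 and 144 CPM under shG9a_4. IFITM2 had 88.4, 69.4 and 78.2 CPM under shSCR, 80.3, 79.7 and 85.4 CPM under shG9a_1, and 89.6, 76.4 and 85.9 CPM under shG9a_4. For both genes the shSCR range spanned nearly all hairpin libraries. BST2 was at 47.6, 43.2 and 35.9 CPM, then 44.9, 50.7 and 38.0 CPM, then 47.0, 38.5 and 43.5 CPM in the same order of groups. IFIT5 was at 72.8, 76.1 and 70.2 CPM, then 71.8, 74.2 and 71.5 CPM, then 71.2, 80.3 and 67.6 CPM. PARP14 was at 138, 126 and 140 CPM, then 151, 139 and 147 CPM, then 139, 152 and 134 CPM. Replicate 2 of shG9a_4 was the highest of the 9 libraries for IFIT5 and PARP14. IFITM1, the third gene of its family, averaged 0.495 CPM per kb, with 0.286 to 0.633 CPM over all libraries.

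**Figure D1:**
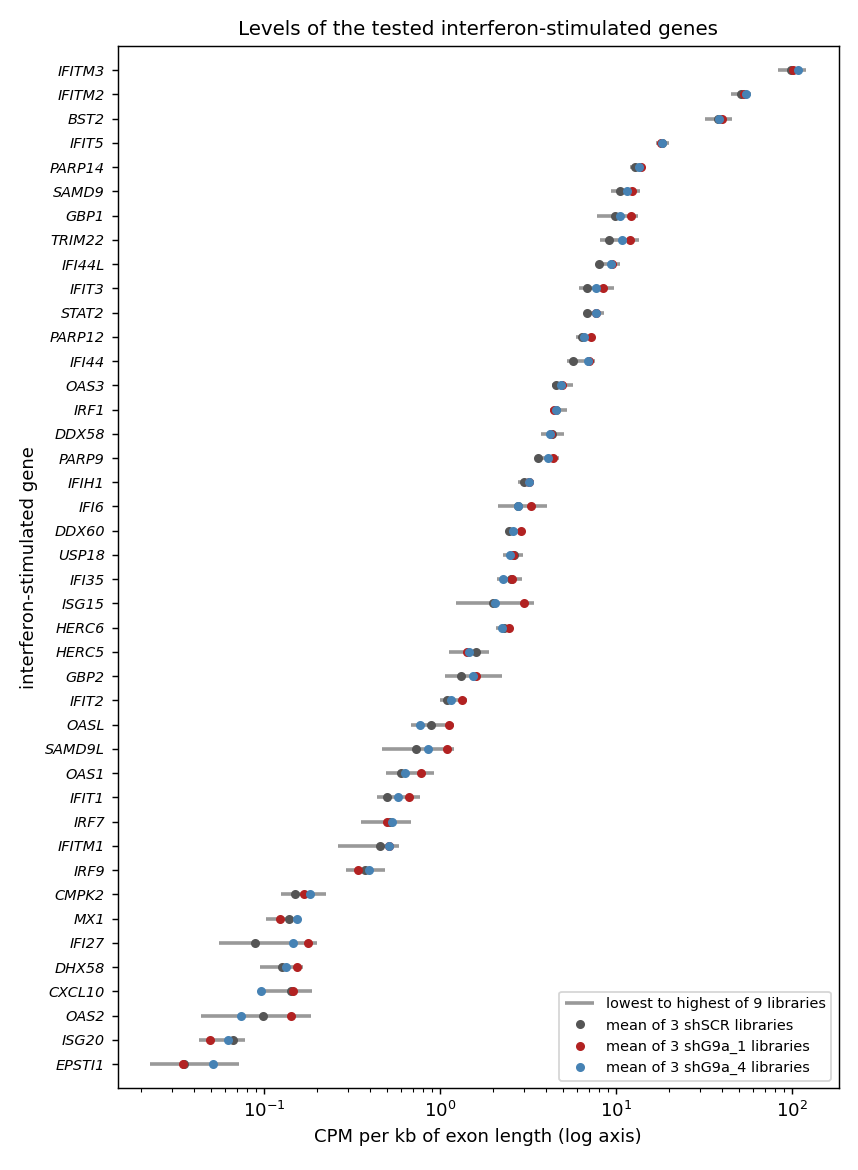
Levels of the 42 tested interferon-stimulated genes in CPM per kb of exon length (log axis), ordered by their mean; dots are the means of 3 libraries of shSCR, shG9a_1 and shG9a_4, and grey bars run from the lowest to the highest of the 9 libraries. IFITM3 leads at 102.8 CPM per kb, and the dots of a gene lie close together compared with the distance between genes.

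At the other end, several genes that are typically among the strongest responders to interferon were close to the limit of detection. A count of 3 reads equalled 0.0390 to 0.0565 CPM, depending on the library. XAF1, a gene known for promoting apoptosis, had 3 reads over all 9 libraries, and MX2, a dynamin-like restriction factor, had 19. CXCL11, a chemokine, had 28 reads and RSAD2, which encodes viperin, had 49. CXCL10, the related chemokine, passed the filter with 87 reads in total. XAF1, MX2, CXCL11 and RSAD2 did not pass the filter and were not tested. MX2 had 0.0490, 0.0443 and 0.0557 CPM under shG9a_1 against 0.0309, 0.0130 and 0 CPM under shSCR, so all its shG9a_1 libraries lay above shSCR, on 0 to 6 reads per library over the 9.

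Against shSCR, the members as a list were slightly higher with shG9a_1, but no member passed the test. Of the 42 tested, 32 had a higher fitted level and 10 a lower one, with a median log2 fold change of 0.18, beside 0.00 for all genes tested. In such bulk samples, more cells expressing a gene and more RNA per cell cannot be told apart. By edgeR's quasi-likelihood test 0 members had an adjusted p under 0.05, where 0.0380% of all genes tested passed. DESeq2 and edgeR's likelihood ratio test also called 0 members. At an unadjusted p under 0.05 there were 9 members, all higher, 21.4% of the 42, where 4.34% of all genes were higher and 3.15% lower at that level. They were IFI27, PARP9, IFI44L, IFI44, SAMD9L, PARP12, DDX60, OASL and TRIM22. In 10 members all 3 shG9a_1 libraries lay above all 3 shSCR libraries, 23.8% of the 42, where 7.15% of all genes did so. In 1 member, ISG20, they all lay below, where 7.54% of all genes did so.

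With shG9a_4 the members' median was lower than with shG9a_1, and again no member passed. Here too 32 members were higher and 10 lower, with a median log2 fold change of 0.09, and 0 passed in edgeR's quasi-likelihood test (0.0271% of all genes), in its likelihood ratio test or in DESeq2. At an unadjusted p under 0.05 there were 3, IFI27, IFI44 and IFI44L, all higher, where 1.40% of all genes were higher and 0.971% lower. All shG9a_4 libraries lay above shSCR for 4 members, STAT2, IFI27, IFI44 and IFI44L, where 3.25% of all genes did so. They lay below for CXCL10 alone, where 3.18% of all genes did so. The median rests in part on the library shG9a_4 replicate 2. Without it the median was 0.03 and 23 of 42 members were higher. Without shSCR replicate 2 it was 0.04. Both hairpins were compared with the same shSCR libraries, so their directions are not independent of each other.

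The replicate number could be taken into the fit as a block, since same-numbered libraries deviated together. With the block, 19 members had an unadjusted p under 0.05 with shG9a_1, all higher, where 8.10% of all genes were higher and 5.15% lower at that level. After adjustment 0 members were under 0.05, where 0.776% of all genes did. The lowest blocked adjusted p among the members was 0.0799, for TRIM22. With shG9a_4 and the block, 6 members had an unadjusted p under 0.05, all higher, where 2.97% of all genes were higher and 1.93% lower. After adjustment 0 members passed, where 0.0759% of all genes did.

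**Figure D2:**
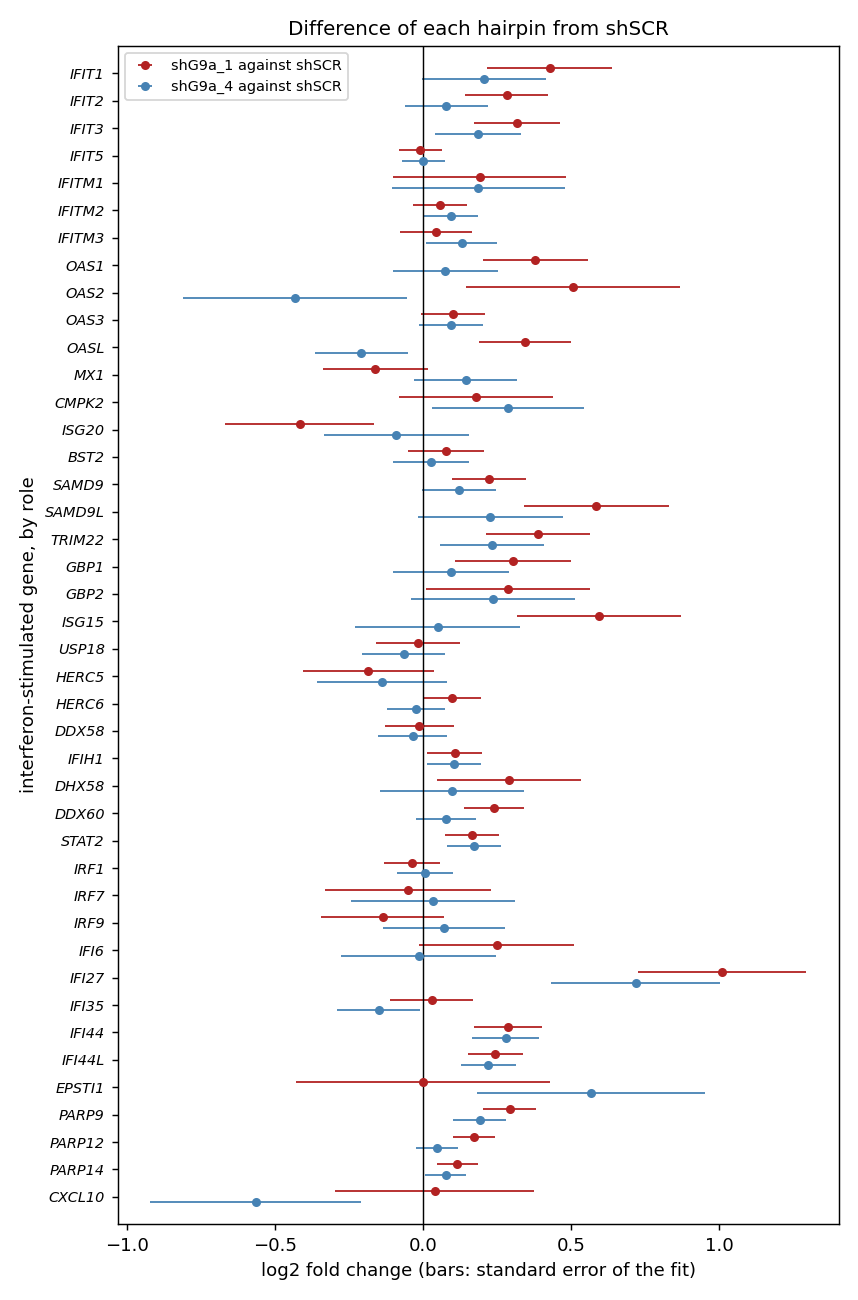
Log2 fold change of each tested member for shG9a_1 and shG9a_4 against the same shSCR libraries, grouped by role from top to bottom; bars are the standard error of the fit. For each hairpin, 32 of the 42 points lie to the right of 0, and IFI27 lies farthest to the right for both.

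IFI27, a mitochondrial protein of unsettled function and a common marker of interferon response in blood, had the largest difference in both comparisons. It was at 0.232, 0.390 and 0.484 CPM under shSCR, at 0.832, 0.590 and 0.798 CPM under shG9a_1, and at 0.526, 0.665 and 0.623 CPM under shG9a_4. All 6 hairpin libraries lay above the 3 shSCR libraries. The log2 fold change was 1.01 (SE 0.28) with shG9a_1, with an adjusted p of 0.544 by edgeR's quasi-likelihood test, and 0.72 (SE 0.29) with shG9a_4, with an adjusted p of 1.00. The gene was covered by 15 to 51 reads per library.

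STAT2, the subunit of the ISRE-binding complex that carries its activation domain, was the other gene with this arrangement. It had 41.4, 42.0 and 41.7 CPM under shSCR, 44.6, 52.3 and 43.3 CPM under shG9a_1, and 42.6, 51.6 and 46.7 CPM under shG9a_4. The shSCR libraries lay close together, and replicate 2 of each hairpin stood above the rest. The log2 fold changes were 0.16 (SE 0.09) and 0.17 (SE 0.09), with adjusted p of 0.743 and 1.00. Both hairpins lying above shSCR was seen in 2 members, IFI27 and STAT2, 4.76% of the 42, where 1.28% of all genes did so.

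IFI44 and IFI44L, neighbouring genes whose products modulate antiviral signalling, had much alike values. IFI44 was at 11.6, 10.8 and 12.6 CPM under shSCR, 15.4, 14.7 and 12.6 CPM under shG9a_1, and 12.8, 15.3 and 14.4 CPM under shG9a_4. IFI44L was at 84.6, 81.0 and 80.5 CPM, then 107, 99.4 and 84.3 CPM, then 91.7, 105 and 89.6 CPM. With shG9a_4 all libraries of both genes were above shSCR, and with shG9a_1 replicate 3 fell within the shSCR range. IFI35, a leucine zipper protein, ran from 4.16 to 5.78 CPM over all libraries. The log2 fold changes of IFI44L were 0.24 (SE 0.09) and 0.22 (SE 0.09).

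Among the IFIT proteins, which bind viral RNA and block its translation, 3 of the 4 had all shG9a_1 libraries above shSCR. Of all genes, 7.15% had this arrangement. The lowest adjusted p of the family with shG9a_1 was 0.669 by edgeR's quasi-likelihood test. IFIT1 had 2.19, 2.46 and 2.25 CPM under shSCR, 2.66, 3.54 and 3.08 CPM under shG9a_1, and 2.01, 3.56 and 2.40 CPM under shG9a_4. In shG9a_4, replicate 2 stood apart and replicate 1 lay below shSCR. IFIT3 had 16.3, 20.2 and 17.5 CPM, then 22.0, 23.7 and 21.5 CPM, then 18.0, 25.7 and 17.7 CPM. IFIT2 ran from 4.12 to 5.08 CPM under shSCR, from 5.24 to 5.86 CPM under shG9a_1 and from 4.16 to 5.32 CPM under shG9a_4. IFIT5, described above, did not share this arrangement.

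The OAS family makes 2′-5′ oligoadenylates that activate RNase L, apart from OASL, which lacks that activity. All 4 members had a higher fitted level with shG9a_1, and in shG9a_4 OAS2 and OASL were lower. OAS2 was at 0.633, 0.806 and 0.428 CPM under shSCR, 0.963, 1.17 and 0.538 CPM under shG9a_1, and 0.447, 0.665 and 0.275 CPM under shG9a_4. OASL was at 2.87, 3.59 and 2.91 CPM, then 4.14, 4.24 and 3.51 CPM, then 3.05, 2.64 and 2.40 CPM. For OASL all shG9a_4 libraries lay below all shG9a_1 libraries.

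Compared directly, shG9a_4 had a log2 difference from shG9a_1 of -0.94 (SE 0.37) for OAS2 and -0.55 (SE 0.16) for OASL. These were the 2 members with an unadjusted p under 0.05 in that comparison, where 4.09% of all genes had one in either direction. By edgeR's quasi-likelihood test 0 members and 0% of all genes passed after adjustment, with or without the block, and DESeq2 called 0 members too. Over the 42 members, 12 were higher and 30 lower in shG9a_4, with a median of -0.05. That median was -0.16 without shG9a_4 replicate 2, -0.12 without shG9a_1 replicate 3, -0.08 without shG9a_1 replicate 1 and -0.02 without shG9a_4 replicate 3. OAS1 ran from 2.44 to 4.55 CPM and OAS3 from 35.7 to 47.2 CPM over all libraries, and the groups overlapped for both.

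Further antiviral effectors included the restriction factors SAMD9 and SAMD9L, the GTPases GBP1 and GBP2, and TRIM22. SAMD9L had 3.34, 7.21 and 5.10 CPM under shSCR, 8.26, 8.59 and 6.66 CPM under shG9a_1, and 5.10, 7.25 and 6.01 CPM under shG9a_4. The control libraries were thus more spread than the shG9a_1 libraries, and its log2 fold change of 0.59 (SE 0.24) had an adjusted p of 0.642 by edgeR's quasi-likelihood test. CMPK2, a mitochondrial nucleotide kinase, ran from 0.577 to 0.757 CPM under shSCR, from 0.538 to 0.974 CPM under shG9a_1 and from 0.659 to 0.918 CPM under shG9a_4. MX1, a dynamin-like GTPase that traps viral nucleocapsids, was at 1.17, 1.13 and 1.30 CPM, then 1.08, 1.24 and 0.891 CPM, then 1.33, 1.35 and 1.30 CPM. ISG20, an exonuclease, had 0.494, 0.403 and 0.577 CPM under shSCR, 0.375, 0.398 and 0.316 CPM under shG9a_1, and 0.434, 0.396 and 0.550 CPM under shG9a_4. It had the lowest fitted log2 fold change with shG9a_1, -0.42 (SE 0.25).

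ISG15 is a ubiquitin-like modifier, HERC5 is the ligase that attaches it, and USP18 removes it and restrains the receptor. ISG15 was at 2.10, 1.48 and 2.07 CPM under shSCR, 2.14, 3.16 and 3.21 CPM under shG9a_1, and 2.39, 1.16 and 2.27 CPM under shG9a_4. All shG9a_1 libraries lay above shSCR, replicate 1 by a narrow margin, and shG9a_4 replicate 2 was the lowest of the 9. The log2 fold change with shG9a_1 was 0.59 (SE 0.28), with an adjusted p of 0.672 by edgeR's quasi-likelihood test. USP18 stayed between 4.83 and 6.30 CPM and HERC6 between 12.1 and 14.9 CPM in all libraries.

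The sensors and transcription factors, which act upstream of the effectors, overlapped between the groups in most cases. DDX58 was at 19.7, 19.3 and 17.6 CPM under shSCR, 19.2, 18.4 and 18.5 CPM under shG9a_1, and 16.8, 22.1 and 16.4 CPM under shG9a_4. IFIH1 was at 15.2, 14.2 and 16.5 CPM, then 16.7, 15.8 and 16.9 CPM, then 15.5, 17.4 and 16.3 CPM. The groups overlapped for both. DDX60, a cofactor of RIG-I, had 16.1, 16.4 and 17.3 CPM, then 18.6, 20.1 and 20.1 CPM, then 16.1, 20.0 and 16.5 CPM. DHX58, which encodes the regulatory helicase LGP2, had 0.525, 0.442 and 0.484 CPM, then 0.604, 0.576 and 0.594 CPM, then 0.645, 0.522 and 0.366 CPM. For DDX60 and DHX58 the shG9a_1 libraries lay above shSCR, as in 7.15% of all genes, and the shG9a_4 libraries overlapped with it.

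IRF1, an early interferon-induced activator, was at 33.4, 36.2 and 36.9 CPM, then 33.4, 35.8 and 34.5 CPM, then 33.0, 40.9 and 33.0 CPM. IRF9, the DNA-binding partner of STAT2, was at 1.31, 1.43 and 1.55 CPM, then 1.22, 1.21 and 1.47 CPM, then 1.11, 1.57 and 1.85 CPM. IRF7, which amplifies type I interferon production, was at 1.81, 0.948 and 1.34 CPM, then 1.19, 1.45 and 1.30 CPM, then 1.46, 0.934 and 1.80 CPM. The groups overlapped for all these factors. On average 33.3% of the stranded reads on IRF7 lay on the opposite strand, 15.0% on IFIT1 and 7.52% on DDX58. The share was at most 0.730% over all tested members together in any library, and 4.94 to 5.26% over all genes.

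PARP9 and PARP12, factors of mono-ADP-ribosylation, had all shG9a_1 libraries above shSCR, where 7.15% of all genes did so. PARP9 had 31.0, 31.0 and 34.4 CPM under shSCR, 40.0, 35.7 and 42.3 CPM under shG9a_1, and 36.1, 39.6 and 34.3 CPM under shG9a_4. Its log2 fold change was 0.29 (SE 0.09) with an adjusted p of 0.583 by edgeR's quasi-likelihood test. PARP12 ran from 37.1 to 42.0 CPM under shSCR, from 43.1 to 46.9 CPM under shG9a_1 and from 40.4 to 42.4 CPM under shG9a_4. EPSTI1, an epithelial-stromal interaction protein, and CXCL10, a chemokine that draws T cells, were at very low levels. EPSTI1 had 0.232, 0.156 and 0.130 CPM, then 0.196, 0.207 and 0.111 CPM, then 0.355, 0.222 and 0.183 CPM. CXCL10 had 0.201, 0.156 and 0.149 CPM, then 0.163, 0.221 and 0.130 CPM, then 0.118, 0.111 and 0.110 CPM. All shG9a_4 libraries lay below shSCR for CXCL10, on 6 to 15 reads per library.

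Of the 46 members, 16 were listed in each of the authors' deposited tables. The authors' deposited table for shG9a_1 gave none of them a posterior probability of different expression above 0.95, and the highest was 0.866 for PARP9. In the authors' deposited table for shG9a_4 the highest was 0.0527, for IFI44L.

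Several members differed by replicate number. With hairpin and number in the fit, 7 of the 42 members had an adjusted p under 0.05 for the number by edgeR's quasi-likelihood test, 16.7%, where 7.47% of all genes did. They were GBP2, GBP1, HERC5, IFI6, TRIM22, OAS2 and SAMD9. In 6 of them the mean over the 3 hairpin groups was highest in the cultures numbered 2, and HERC5 was highest in those numbered 1. A peak in number 2 was common among all genes, with 603 of the 1377 called having number 2 above both others. The labels tie the numbers to no day or batch.

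GBP2 had an adjusted p of 0.00250. Cultures numbered 1 had 7.77, 8.63 and 8.06 CPM under shSCR, shG9a_1 and shG9a_4, those numbered 2 had 10.3, 13.3 and 14.2 CPM, and those numbered 3 had 6.71, 8.32 and 6.91 CPM. All cultures numbered 2 lay above all others. With shG9a_4 its log2 fold change was 0.23 (SE 0.28), and -0.15 without shG9a_4 replicate 2. GBP1 had an adjusted p of 0.00336, with 44.9, 65.5 and 53.8 CPM in number 1, 63.2, 66.9 and 62.6 CPM in number 2, and 38.9, 49.4 and 40.7 CPM in number 3. Each of the 3 groups had its lowest GBP1 value in number 3.

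IFI6, an anti-apoptotic protein that limits the replication of flaviviruses, had 1.84, 2.27 and 1.96 CPM in number 1, 3.21, 3.53 and 3.15 CPM in number 2, and 2.16, 2.78 and 2.05 CPM in number 3. The cultures numbered 2 were again above all others, by 0.71 on the log2 scale over number 1. For any difference among the numbers, IFI6 had an adjusted p of 0.0130 by edgeR's quasi-likelihood test. SAMD9 had 63.9, 82.9 and 72.3 CPM, then 83.1, 90.1 and 94.3 CPM, then 69.9, 79.8 and 69.5 CPM, with an adjusted p of 0.0294. TRIM22 had 50.3, 81.5 and 64.6 CPM, then 66.3, 77.8 and 78.7 CPM, then 49.0, 57.5 and 51.1 CPM, with an adjusted p of 0.0151. Number 3 was lowest for TRIM22 in every group.

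OAS2, given above by group, was lowest in number 3 within each hairpin, and number 3 lay below number 2 by a log2 difference of -1.09. Its adjusted p of 0.0240 by edgeR's quasi-likelihood test was for any difference among the numbers. Single pairs of numbers were not tested. HERC5 differed in another order, with 8.83, 8.49 and 9.05 CPM in number 1, 8.04, 6.18 and 6.43 CPM in number 2, and 6.13, 5.57 and 5.39 CPM in number 3. All HERC5 values of number 1 lay above all others, and the adjusted p for any difference among the numbers was 0.0117 by the same test. The call for the number rested on single libraries for 5 of these genes. GBP1 and GBP2 passed whichever library was left out. In all, 3 members passed without shSCR replicate 2 and 4 without shSCR replicate 3, beside 903 and 529 of all genes. Without shG9a_1 replicate 3 there were 3 and without shG9a_4 replicate 3 there were 2, beside 507 and 435 of all genes. With all libraries 1377 genes passed, so the calls fell among all genes too.

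**Figure D3:**
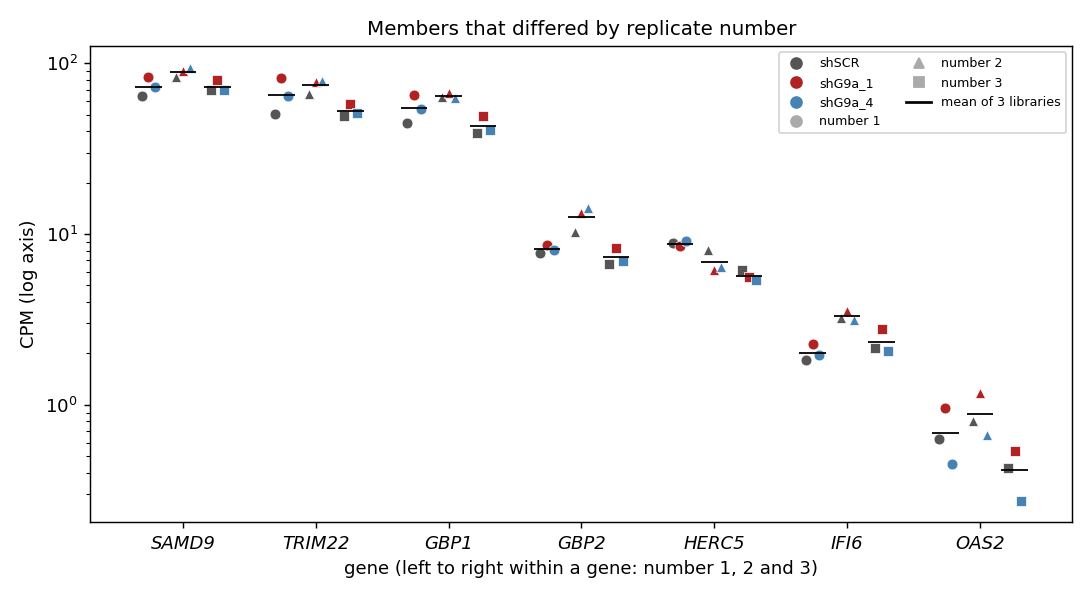
CPM (log axis) of the 7 members that differed by replicate number; colours are the hairpins, marker shapes are the numbers 1 to 3 from left to right within a gene, and black bars are means of 3 libraries. The triangles of number 2 lie above all other points for GBP2 and IFI6, and the circles of number 1 do so for HERC5.

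Markers of other cell types also varied with the number. HLA-DRA, a class II antigen-presentation gene that interferon gamma is known to induce, was chosen for mention after its values were seen. It had 10.2, 14.8 and 6.99 CPM in number 1, 9.45, 19.1 and 15.9 CPM in number 2, and 0.782, 1.45 and 0.788 CPM in number 3. CD14 had 4.15, 3.86 and 4.47 CPM in number 3 and was the larger of the pair there, while HLA-DRA was the larger in numbers 1 and 2. The summed level of the 10 immune markers ranged from 5.01 to 13.8 CPM under shSCR, 5.35 to 25.4 CPM under shG9a_1 and 5.37 to 20.7 CPM under shG9a_4. The 7 fibroblast markers, of which DCN made up most, summed to 159 to 337 CPM, 197 to 422 CPM and 140 to 417 CPM, with the lowest sum of each group in number 3. The part of either set in the differences by number was not tested.

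Taken over the tested members, each library's median deviation from the gene's mean over the 9 libraries was -0.08, -0.04 and -0.08 on the log2 scale in shSCR. It was 0.07, 0.13 and 0.02 in shG9a_1, and -0.03, 0.14 and -0.07 in shG9a_4. All shG9a_1 libraries lay above all shSCR libraries on this measure, and in shG9a_4 replicate 3 lay within the shSCR range. The libraries shG9a_1 replicate 2 and shG9a_4 replicate 2 were each the highest of the 9 for 11 members.

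**Figure D4:**
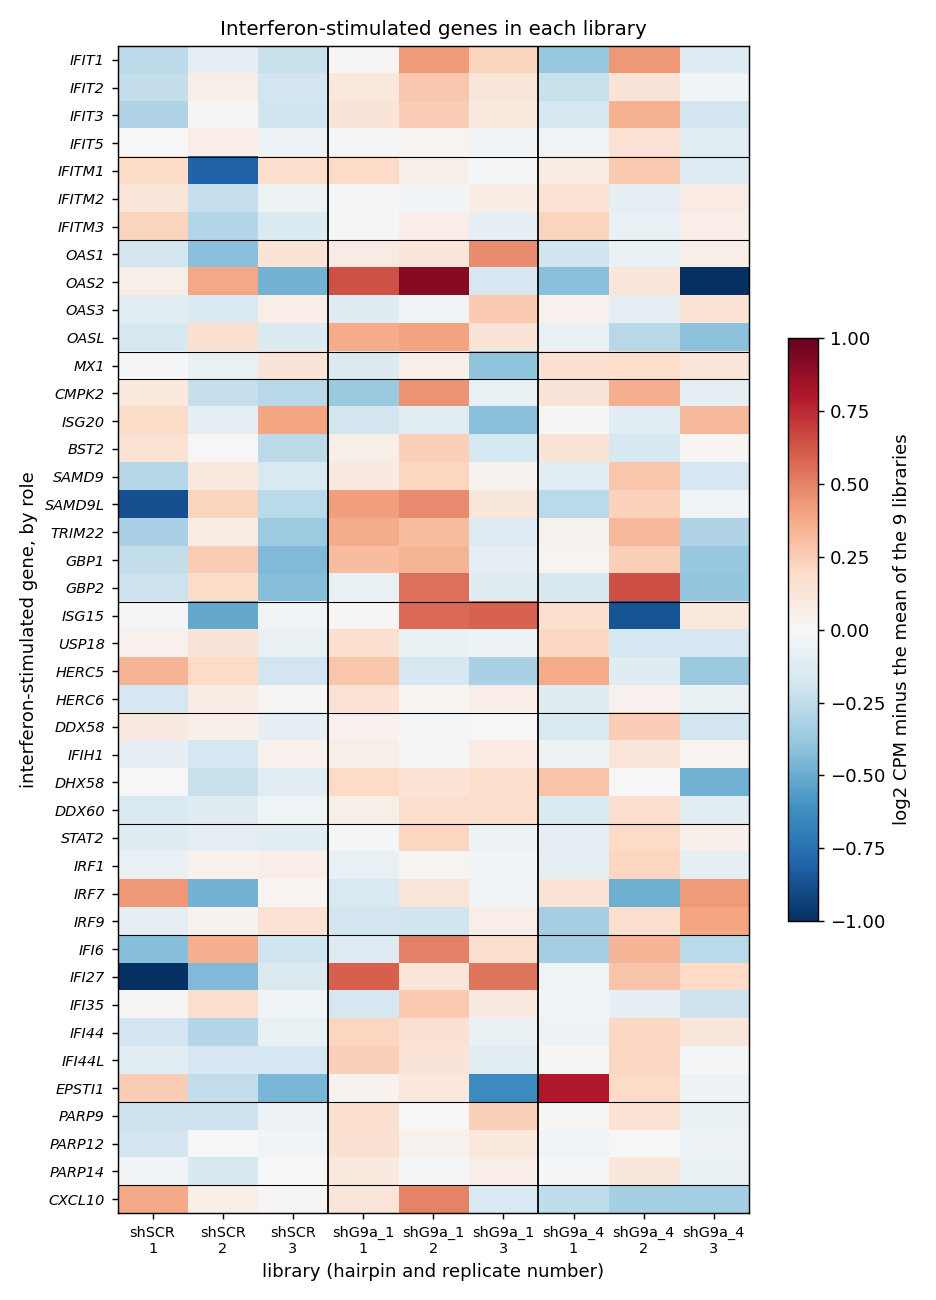
Log2 CPM of each tested member minus its mean over the 9 libraries, with libraries in columns by hairpin and replicate number and genes in rows by role; the colour scale ends at -1 and 1. The columns of shG9a_1 and of shG9a_4 replicate 2 hold more red than the shSCR columns, and the rows of GBP1, GBP2, TRIM22 and IFI6 are red in all or most number 2 columns.

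The fold changes were also split by the promoter letters. The 24 tested members with a core in a window had a median log2 fold change of 0.18 with shG9a_1 and 0.10 with shG9a_4, and the 9 without one had 0.10 and 0.07. The genes called by number included 4 of the 24 and 0 of the 9 by edgeR's quasi-likelihood test. Of all genes tested, 7.47% were called. GBP2, OAS2 and TRIM22 were also called, but had no window to search and are in neither set. The difference between these sets was not tested.

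Other parts of the interferon pathway were taken from lists of ligands, receptors and kinases, sensing and signalling genes, negative regulators and further induced genes. Interferon genes themselves were nearly silent. Of 11 ligands, 8 had no read in any library, and IFNB1 and IFNK had 1 read each. IFNE, an epithelial type I interferon, had 0.147 to 0.279 CPM over the 9 libraries. The receptors and kinases were expressed in all groups, with IFNAR1 at 60.7 to 73.2 CPM, IFNGR1 at 214 to 341 CPM and JAK1 at 139 to 189 CPM.

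Of the 75 pathway genes tested, 56 were higher and 19 lower with each hairpin, with medians of 0.12 and 0.04 on the log2 scale. By edgeR's quasi-likelihood test 0 passed for either hairpin, and with the replicate block 3 passed for shG9a_1, all higher, where 0.776% of all genes passed in either direction. The likelihood ratio test called 1 gene with each hairpin, STAT3, and DESeq2 called STAT3 with each and also PSMB8, an immunoproteasome subunit, with shG9a_1. Of all 18435 genes, the likelihood ratio test called 42 with shG9a_1 and 17 with shG9a_4, and DESeq2 called 79 and 22. At an unadjusted p under 0.05 there were 17 for shG9a_1, 22.7% of the 75, and 4 for shG9a_4, 5.33%, all higher, where 4.34% and 1.40% of all genes were higher. The genes that passed with the block were STAT3, which relays cytokine signals, APOL1, an apolipoprotein that lyses trypanosomes, and GBP3, a relative of GBP1. STAT3 had 204, 183 and 200 CPM under shSCR, 250, 248 and 249 CPM under shG9a_1, and 249, 255 and 244 CPM under shG9a_4. All its hairpin libraries lay above shSCR. Its blocked adjusted p with shG9a_1 was 0.0337 by edgeR's quasi-likelihood test. With shG9a_4 and the block 0 pathway genes passed, and their lowest adjusted p was 0.0656. APOL1 had 2.32, 3.33 and 3.28 CPM, then 3.98, 5.28 and 4.47 CPM, then 2.83, 3.82 and 3.54 CPM (blocked adjusted p 0.0416). GBP3 had 22.5, 35.3 and 28.8 CPM, then 42.9, 42.8 and 39.6 CPM, then 34.6, 43.5 and 33.9 CPM (blocked adjusted p 0.0430).

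Of 8 negative regulators and 15 sensing and signalling genes tested, 0 passed for either hairpin by edgeR's quasi-likelihood test, with or without the block, by its likelihood ratio test or by DESeq2. At an unadjusted p under 0.05 there was 1, SOCS1, higher with shG9a_1, where 4.34% of all genes were higher at that level. SOCS1, a feedback inhibitor of JAK kinases, had 0.371, 0.390 and 0.410 CPM under shSCR, 0.473, 0.679 and 0.724 CPM under shG9a_1, and 0.382, 0.285 and 0.440 CPM under shG9a_4. SOCS3, its relative, ran from 12.4 to 17.7 CPM, NLRX1 from 8.44 to 14.0 CPM and TRIM28, a corepressor of retroelements, from 253 to 366 CPM over all libraries. TLR3, an endosomal receptor for double-stranded RNA, ran from 21.4 to 26.8 CPM under shSCR, 23.5 to 32.1 CPM under shG9a_1 and 23.3 to 35.6 CPM under shG9a_4. IRF5 ran from 2.18 to 3.50 CPM and AIM2 from 0.147 to 0.408 CPM. By replicate number 7 of the 75 pathway genes passed, 9.33%, where 7.47% of all genes did: IFNGR1, IFNGR2, IFNLR1, MAVS, UBA7, C1S and CFB. None of these 7 passed in all of the 17 settings tried, and each passed in 10 to 14 of them. MAVS, the adaptor of RIG-I, had 106, 110 and 107 CPM in number 3 against 80.5 to 93.0 CPM in the other cultures, and IFNLR1, the receptor for type III interferon, had 2.17 to 2.38 CPM in number 3 against 1.09 to 1.98 CPM. GBP5, LAMP3 and LY6E, named for the extreme fold changes of their list, ran from 0.0371 to 0.396 CPM, 0.294 to 0.689 CPM and 76.9 to 121 CPM, and their groups overlapped.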

How the data were processed

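Reads per gene were measured by stranded total RNA sequencing (paired reads of 75 bases, ribosomal RNA removed) in 9 libraries. The authors deposited whole-number counts per gene in 3 strand columns. Per the submitters' processing notes, GRCh37 and hg19 were the builds and STAR 2.5.2a, DESeq, R 3.3.1 and edgeR 3.14.0 the tools, with no step assigned to any. The annotation release and trimming are not given in these sources. The authors also deposited, per the file headers, posterior probabilities (PPEE and PPDE, used as scores) and linear folds (PostFC and RealFC, ratios, not printed here).

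The reverse-strand counts were used, which held 94.7 to 95.1% of stranded reads. STAR's layout counts reads that map to 1 place, so the near-identical IFITM1, IFITM2 and IFITM3 and the GBP family are uncertain, as are IFIT2, IRF9 and TRIM22, whose exons overlap another gene on the same strand in GENCODE 29. Exon lengths came from that release. Library sizes left out the 4 summary classes without a gene. They held 2.75 to 4.34% (unmapped), 4.57 to 5.49% (multimapped), 12.2 to 15.4% (no feature) and 2.49 to 2.68% (ambiguous) of read pairs. Symbols were given to 55698 of 60308 IDs. IKBKE and PECAM1 found no ID and were not used.

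Levels are CPM on library sizes scaled by TMM. Genes were tested with edgeR 4.0.16 (R 4.3.3) by quasi-likelihood F-tests on all 9 libraries after filterByExpr, with a mean per group and 6 residual degrees of freedom, two-sided, with Benjamini-Hochberg adjustment over 18435 genes at 0.05. The replicate number was tested by its 2 terms together in a fit that also held the groups. The numbers were taken to pair the samples. Deviations from group means correlated at 0.178 to 0.461 in the 9 pairs of the same number and at -0.327 to 0.169 in the 18 others. Centring within groups ties the mean of the others, -0.15, to that of the same-number pairs, 0.30. The contrast of these means is therefore no separate evidence of pairing. With the number as a block, the fit had 4 residual degrees of freedom. The scripts were tested on simulated counts. Alternatives were RLE or no scaling, no filter, a filter at 1 CPM in 3 libraries, the likelihood ratio test, DESeq2 1.42.0, unstranded counts, fits of 2 groups and leaving out each library.

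Values per library are given for members called in any fit, the 5 highest and 3 lowest fold changes per hairpin, members with both hairpins on one side of shSCR, the 5 highest per kb, and sensors and transcription factors. Of the pathway lists, called genes and the extreme fold changes of a list are named. The members, the lists and this rule were chosen with earlier results of these data known.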

Additional observations from a re-analysis of the deposited data

How the results depend on the processing

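For shG9a_1 against shSCR, 7 genes of all tested passed, and the count was 143 with the replicate block, 288 with no filter, 42 with the likelihood ratio test and 79 with DESeq2, and 0 to 10 when a library was left out. With no filter 1 member passed, TRIM22 (adjusted p 0.00962), and in all other alternatives 0 did. For shG9a_4, 5 genes passed, against 14 with the replicate block, 49 with no filter, 17 with the likelihood ratio test, 1 with unstranded counts, 22 with DESeq2, 0 with only the 2 groups compared and 0 to 7 when a library was left out; 0 members passed in any. Between the hairpins 0 genes passed, against 106 with no filter, 5 with the likelihood ratio test and 6 with DESeq2. The members' median ranged over the left-out libraries from 0.14 to 0.22 for shG9a_1, from 0.03 to 0.10 for shG9a_4 and from -0.158 to -0.0215 between the hairpins. The replicate block changed no call of a member.

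For the replicate number, 1377 genes passed, against 2874 with no filter, 2328 with the likelihood ratio test and 435 to 2109 when a library was left out. Of the members 2 to 9 passed when a library was left out and 6 to 10 in the other alternatives. GBP2 with shG9a_4 ranged from -0.15 (without shG9a_4 replicate 2) to 0.43 (without shG9a_4 replicate 3). This was the only sign change among the members' fold changes given with an error. Other members, printed without an error, changed sign too. With shG9a_4 IFIT1 ranged from -0.07 to 0.37 and SAMD9 from -0.04 to 0.23 over the alternatives. With shG9a_1 IFITM1 ranged from -0.10 to 0.37. The cause was not tested. Depth limits what can be said of the 4 genes that failed the filter and the 12 members under 1 CPM. The tests measure spread between 3 cultures of a single line.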
